A study of Mus musculus with 2 samples.

Results

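The nuclear genes of oxidative phosphorylation were taken as the protein-coding genes of GENCODE vM21 (mm10) on chromosomes 1 to 19 and X whose symbol starts with Nduf, Uqcr, Atp5, Cox4, Cox5, Cox6, Cox7 or Cox8, or is Sdha, Sdhb, Sdhc or Sdhd. The rule gave 93 gene symbols of 21728, and Atp5o is the only symbol among them with more than 1 gene model. DNase-seq, which maps DNA that nuclease cuts readily because no nucleosome protects it, was carried out on frontal cortex nuclei of male mice of the F1 hybrid B6CASTF1/J at 10 days of age. There was 1 group of 2 libraries, labelled biological replicates 1 and 2, with no treatment and no comparison group. Both labels carry the same donor entry and a note reading 3x male, so whether the libraries came from separate animals is not given. Each comparison of the replicates therefore measures only the spread between these libraries, and 2 paired values cannot give a two-sided exact p below 0.5, so no test was made. Replicate 2 was 1.64 times as deep as replicate 1 by the size of the density steps, and its main peak list held 45915 peaks against 39608.

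Oxidative phosphorylation passes electrons from NADH and succinate through membrane complexes to oxygen and uses the proton gradient so built to make ATP. Most subunits are encoded in the nucleus, made in the cytosol and imported into mitochondria, where they meet the few subunits encoded by mitochondrial DNA. Neurons depend on this supply of ATP for ion pumping and synaptic transmission. A small number of subunits, nearly all of complex IV (cytochrome c oxidase), have further forms encoded by separate genes and known from heart, muscle, testis, lung or low oxygen.

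The promoters of the common subunits were accessible without exception, and those of the tissue-restricted forms were mostly closed. A promoter peak here is a peak of the main list that overlaps the window of 1 kb to each side of any annotated transcription start site (TSS). It was found for 86 members in replicate 1, where 58.2% of all protein-coding genes had one, and for 87 in replicate 2, where 57.4% did. Genes with one in each library are called open here, and 86 of 93 members were open (92.5%), against 55.5% of all protein-coding genes. All 85 common members were among them, and 1 of the 8 restricted or inducible forms was, the testis form Cox6b2. A hotspot, a broader region of raised cleavage, was present in both libraries for 87 members, against 63.9% of all genes. Fewer accessible cells and less accessible DNA per cell cannot be told apart in tissue.

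The tissue label was checked against cell type markers. All 6 neuronal markers had a promoter peak in both libraries, and of 6 markers of cortical excitatory neurons 4 had one in both and all 6 in replicate 2. Among glial and vascular markers, 1 of 4 for astrocytes (Slc1a3), 0 of 4 for oligodendrocytes, 1 of 4 for microglia (Cx3cr1), 1 of 4 for endothelium (Flt1) and 1 of 4 for mural cells (Rgs5) had one in both.

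Peak strength was the cleavage density that the authors deposited for each peak, a read-depth normalised signal, and was ranked within its own library's list. The percentile of a gene is the share of peaks in that list at or below its strongest promoter peak. The median percentile of the 86 open members was 88.7 in replicate 1 and 89.9 in replicate 2, a mean of 89.3 ± 0.813 (SD, n = 2). All 12069 open protein-coding genes had medians of 84.3 and 85.8. In density, the members' medians were 5.56 and 3.59, and those of all such genes 4.30 and 2.80. The members' medians stood above those of all open genes by 4.41 and 4.07 percentile points. A mean percentile of 90 or more was reached by 40 of 86 members and by 4358 of the 12069 open genes.

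**Figure D1:**
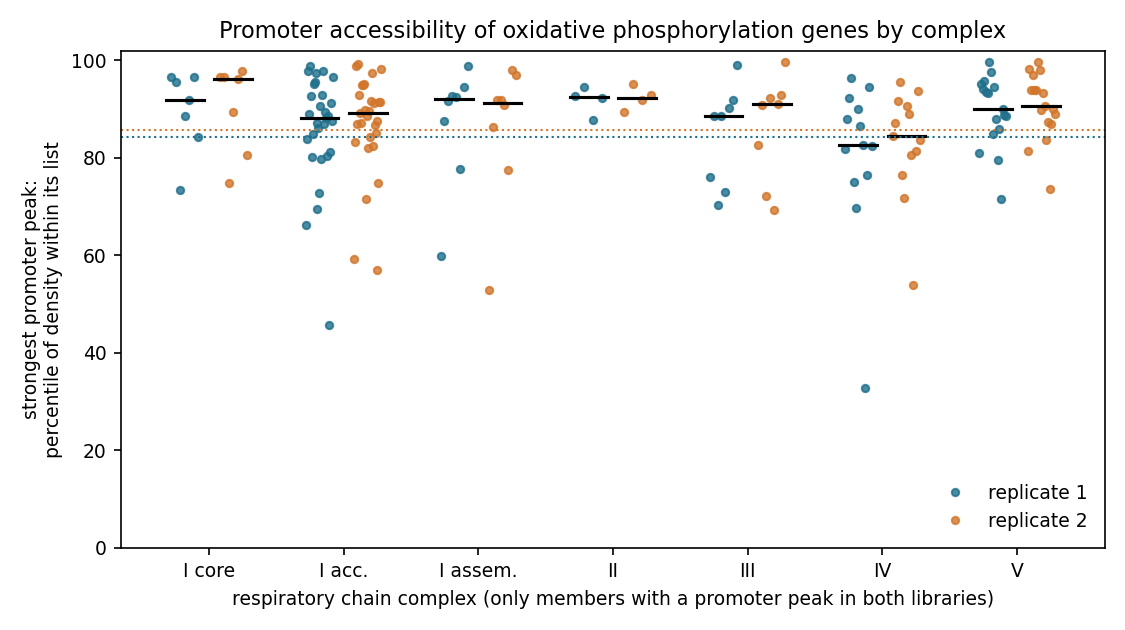
Each point is 1 gene in 1 library, placed by the percentile of the density of its strongest promoter peak (vertical axis, 0 to 100) and by complex (horizontal axis, open members only; acc., accessory subunits; assem., assembly factors). Black bars are medians and dotted lines the medians of all open protein-coding genes, 84.3 in replicate 1 and 85.8 in replicate 2. The complex IV bars include the testis form Cox6b2 and stand at 82.7 in replicate 1 and 84.5 in replicate 2. Most points lie above 70, and the lowest are Cox7b, Ndufc2, Ndufaf1 and Ndufa1.

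Complex I (NADH dehydrogenase) takes electrons from NADH and passes them to ubiquinone. Its 7 nuclear core subunits, which hold the flavin and the iron-sulfur clusters, had median percentiles of 91.8 and 96.3. The highest was Ndufv1, the NADH-binding flavoprotein, with densities of 10.5 in replicate 1 and 7.98 in replicate 2 (percentiles 96.7 and 97.9). The lowest was Ndufs3, with 2.64 and 1.75 (73.5 and 74.8), and its strongest peak lay nearer to the start of Kbtbd4 in both libraries. Ndufs1, the largest core subunit, had densities of 10.3 and 6.64 and 9 footprints found in both libraries.

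The 29 accessory subunits of complex I had medians of 88.1 and 89.2. Ndufa13 stood highest by the promoter rule, with densities of 14.4 and 10.7 (percentiles 98.9 and 99.3) and 11 shared footprints, the most of any member. These belong to DNA well upstream of Ndufa13: the midpoint of its strongest peak lay at −743 and −773 bp from its start, where negative is upstream, and nearer to Yjefn3, and with a window of 500 bp none of the shared footprints remained. Ndufb5 had densities of 12.02 and 7.42. Its strongest peak was nearest to Ndufb5 in both libraries, but the mitochondrial ribosomal gene Mrpl47 starts 20 bp away, so the peak may be shared. At the other end, Ndufc2 had densities of 1.35 and 1.15 (45.6 and 57.02). The 8 assembly factors, which help build complex I but do not stay in it, had medians of 92.1 and 91.3, from Ndufaf8 with 14.5 and 7.03 (99.0 and 97.1) to Ndufaf1 with 1.80 and 1.06 (59.9 and 52.8). In replicate 1 the Ndufaf8 peak lay nearer to Tepsin, and no peak was nearest to Ndufaf8 itself.

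Complex II, succinate dehydrogenase, is the only complex of the chain encoded wholly in the nucleus. Its 4 genes were close to each other, with medians of 92.5 and 92.4. Sdhb, the iron-sulfur subunit, had densities of 8.49 and 5.70, and Sdhc, a membrane anchor, 5.26 and 4.18.

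Complex III passes electrons from ubiquinol to cytochrome c, and its 8 members had medians of 88.6 and 91.0. Uqcrq reached densities of 14.7 and 12.6 (99.0 and 99.7), again with the strongest peak nearer to another gene in both libraries, Gdf9, which starts 192 bp away. Uqcrc2, a core protein, was lowest by mean, with 2.60 and 1.495 (73.03 and 69.4).

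Complex IV reduces oxygen, and its 12 common members had the lowest medians of the classes described here, 84.7 and 85.8, next to 84.3 and 85.8 for all open genes. Ndufa4, named as a complex I gene but a subunit of complex IV, is counted here. Cox6a1 was highest, with densities of 10.1 and 5.95 (96.3 and 95.7). Cox7b was lowest of all members in replicate 1, with 1.09 and 1.08 (32.8 and 53.9).

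Complex V, the ATP synthase, had medians of 89.99 and 90.6 over 17 members. Its c-ring subunit is encoded by separate genes whose mature proteins are alike. Among them, Atp5g1 had densities of 18.0 and 12.5 (99.7 and 99.6), Atp5g2 11.7 and 8.01 (97.6 and 98.0), and Atp5g3 4.47 and 3.57 (85.0 and 89.8). The order of the 3 genes was the same in both libraries, and Atp5g1 had the highest mean percentile of all members. Atp5l, a small membrane subunit, was the lowest of complex V with 2.47 and 1.69 (71.5 and 73.7).

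The promoter of Atp5g1 is shown because it had the highest mean percentile of the members, although Uqcrq was higher in replicate 2. The 250 bases before the 5′ end of the gene are given from GRCm38 (mm10), 5′ to 3′ on the strand of the gene, and capitals mark bases that lie in footprints of both libraries, short protected stretches inside accessible DNA.
Atp5g1, chr11:96075671-96075920, minus strand: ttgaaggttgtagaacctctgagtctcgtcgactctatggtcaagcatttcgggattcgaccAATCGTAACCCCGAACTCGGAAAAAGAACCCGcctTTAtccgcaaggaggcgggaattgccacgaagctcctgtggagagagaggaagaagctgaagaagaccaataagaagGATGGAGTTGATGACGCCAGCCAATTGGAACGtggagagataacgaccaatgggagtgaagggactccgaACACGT
Footprints of both libraries covered 73 of its 250 bases. The sequence holds 5 matches to the CCAAT box and none to NRF1, ETS or SP, and its GC content is 50.8%.

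The replicates ranked the members alike. Spearman's rho of density across the 86 members was 0.949, given as a description across genes that share their libraries, and it was 0.973 across 12069 genes. The median absolute difference in percentile was 1.51 for the members and 2.12 for all. Density was higher in replicate 1 for all 86 members, by 1.01 to 2.12 times. This difference was not particular to them: the median ratio was 1.55 for the members and 1.51 for the 12069 genes. The median density of the whole main list was 1.47 in replicate 1 and 1.01 in replicate 2. The 3 largest percentile differences were those of Cox7b, which was 21.1 points higher in replicate 2, Ndufc2, 11.4 points higher, and Ndufb11, 9.37 points higher.

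**Figure D2:**
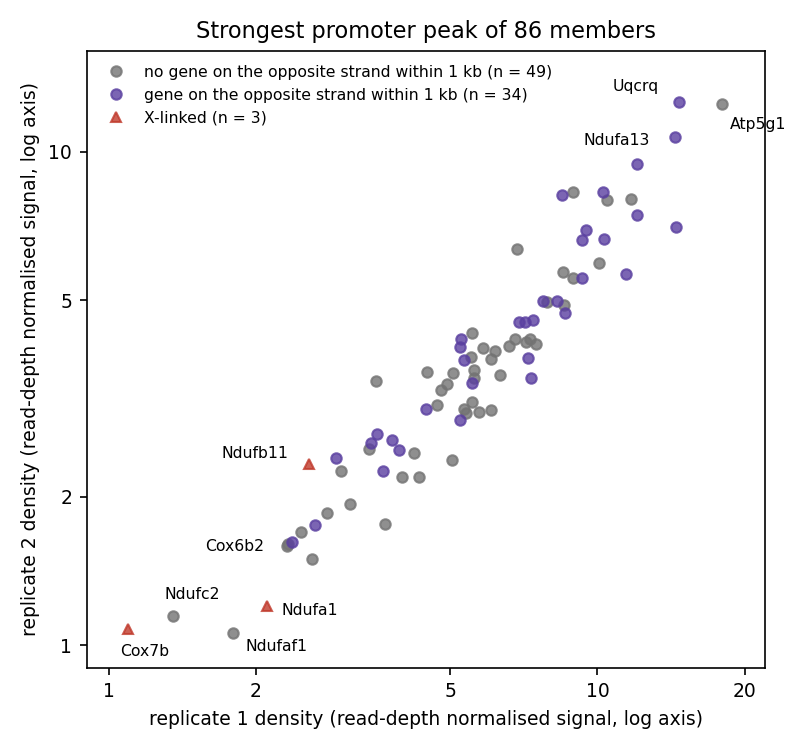
Each point is 1 of the 86 open members, placed by the density of its strongest promoter peak in replicate 1 (horizontal, log axis) and replicate 2 (vertical, log axis). Colours mark genes with a protein-coding gene on the opposite strand starting within 1 kb, genes without one, and the X-linked members. The points run along 1 band, from Cox7b at 1.09 and 1.08 to Atp5g1 at 18.0 and 12.5.

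The 3 X-linked members were among the weaker ones. Ndufa1, a small membrane subunit of complex I, had densities of 2.10 and 1.20, Ndufb11 2.57 and 2.32, and Cox7b 1.09 and 1.08. Their median percentiles were 66.2 and 59.3, against 88.9 and 90.6 for the 82 autosomal common members. X-linked genes in general were lower too, with medians of 70.4 and 73.1 over 391 open genes, against 84.7 and 86.2 over 11678 autosomal ones. Males carry a single X, and its part in these values was not tested.

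The strongest peak of a member usually lay close to an annotated start site of that gene. Its midpoint had a median of −21 bp from the nearest annotated TSS of the gene in replicate 1 and −21.5 bp in replicate 2, and it lay within 100 bp for 75 and 73 of 86 members. The median width was 240 and 221.5 bp. These positions were not measured for other genes, and a gene with more annotated TSSs has more starts for a peak to lie near.

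Many members start close to another gene that runs the other way. A protein-coding gene on the opposite strand started within 1 kb for 36 of the 86 open members (41.9%). The share was 20.2% of the 12069 open genes and 12.4% of all protein-coding genes. None of the 8 restricted forms had one, and 8 genes are too few to compare with these shares. Some partners are genes of the same organelle: Sdhd, a membrane anchor of complex II, starts 98 bp from Timm8b, a chaperone of mitochondrial import, and Ndufs6 starts 29 bp from the mitochondrial ribosomal gene Mrpl36. Atp5j, a stalk subunit of the ATP synthase, starts 31 bp from Gabpa, which encodes the DNA-binding subunit of an ETS factor known to bind promoters of respiratory genes. The shared peak had densities of 5.33 and 3.78 and lay nearer to Gabpa in both libraries.

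Common members with such a neighbour had median percentiles of 92.4 and 92.4, and the 49 without one 88.6 and 89.4. All open genes with such a neighbour had medians of 90.4 and 91.4. For 15 members the strongest peak was nearest to the other gene in both libraries, so its strength cannot be given to 1 gene of the pair. The same limit holds where the peak was nearest to the member but the neighbour starts close by, as for Ndufs1, 3 bp from Eef1b2. When only peaks nearest to the member's own start were kept, 71 members had one in both libraries, with a mean of the medians of 89.0. The same count over all protein-coding genes was not made, so the 71 cannot be set beside a general share.

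Footprints mark bases protected inside accessible DNA, most often by a bound protein. A footprint of replicate 1 that overlapped one of replicate 2 by at least 1 bp lay in the promoter window of 86 members, against 57.4% of all genes. These are the same 86 that were open, and Cox7a1 had footprints in each library without an overlap. The 86 had a median of 4 shared footprints, from 1 in Cox7b to 11 in Ndufa13, and open genes in general had a median of 5. After Ndufa13, the most were found in Atp5f1, Ndufs1 and Uqcrh, with 9 each; the strongest peak was nearer to Wdr77 for Atp5f1 in replicate 1 and to Lrrc41 for Uqcrh in both libraries. Atp5f1 encodes a stalk subunit of the ATP synthase, and Uqcrh the hinge protein of complex III. Footprint counts and their medians were not corrected for window length, which grows with the annotated TSSs of a gene. The windows covered 2001 bp for Ndufa13, 6680 bp for Atp5f1, 8506 bp for Ndufs1 and 4042 bp for Uqcrh.

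Most of the tissue-restricted forms showed no accessible DNA at their promoters. Cox6a2 and Cox8b of heart and skeletal muscle, Cox7b2 and Cox8c of testis, and Cox4i2, known from lung and low oxygen, had no promoter peak in any of the deposited peak lists of either library. None of these 5 genes had a hotspot or a footprint in its promoter window, and no base there was listed under an FDR of 0.05. Over all protein-coding genes, 32.9% had no such base in either library. The nearest main peak to a start of Cox6a2 was 27882 bp away in replicate 1 and 27875 bp in replicate 2, nearer to Itgad. For Cox8c the distance was 13379 and 13389 bp, nearer to Btbd7, and for Cox4i2 11592 and 11560 bp. Cox8b had a main peak closer by in replicate 1, at 2980 bp and with no protein-coding start nearer to it than that of Cox8b, and in replicate 2 its nearest lay 18095 bp away, nearer to Sirt3. For Cox7b2 the distance was 109344 and 45948 bp.

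The common partners of these forms were all accessible. Cox6a1, the partner of Cox6a2, had densities of 10.1 and 5.95, and Cox8a, the partner of Cox8b and Cox8c, 8.52 and 4.89. Cox4i1, the partner of Cox4i2, had 3.79 and 2.60. In replicate 2 the Cox4i1 peak lay nearer to Emc8, which starts within 1 kb, and no promoter peak was nearest to Cox4i1 itself. Cox7b, the partner of Cox7b2, was the weakest, as given above. Since a closed promoter carries no peak value, the size of the difference could not be given.

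The promoters of the closed muscle forms and of their common partners are printed together so that footprints and base composition can be compared. Each line gives the 250 bases before the 5′ end of the gene, 5′ to 3′ on the strand named, from GRCm38 (mm10), with capitals for bases in footprints of both libraries.
Cox6a1, chr5:115348982-115349231, minus strand: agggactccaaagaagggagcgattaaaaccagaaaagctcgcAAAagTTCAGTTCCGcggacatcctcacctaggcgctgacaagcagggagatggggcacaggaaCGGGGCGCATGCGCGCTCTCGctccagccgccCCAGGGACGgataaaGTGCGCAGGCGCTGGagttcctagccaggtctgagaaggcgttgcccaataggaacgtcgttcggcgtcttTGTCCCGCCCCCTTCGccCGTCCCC
Cox6a2, chr7:128206388-128206637, minus strand: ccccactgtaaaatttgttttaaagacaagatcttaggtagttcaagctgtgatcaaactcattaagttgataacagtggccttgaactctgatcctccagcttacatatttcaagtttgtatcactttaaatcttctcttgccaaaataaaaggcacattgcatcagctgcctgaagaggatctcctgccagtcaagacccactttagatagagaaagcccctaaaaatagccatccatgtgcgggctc
Cox8a, chr19:7217617-7217866, minus strand: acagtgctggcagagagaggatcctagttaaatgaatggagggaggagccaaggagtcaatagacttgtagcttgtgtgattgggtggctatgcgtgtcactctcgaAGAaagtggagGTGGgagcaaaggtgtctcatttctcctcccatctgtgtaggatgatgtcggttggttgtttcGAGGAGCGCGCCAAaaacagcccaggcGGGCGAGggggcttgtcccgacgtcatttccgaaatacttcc
Cox8b, chr7:140900447-140900696, minus strand: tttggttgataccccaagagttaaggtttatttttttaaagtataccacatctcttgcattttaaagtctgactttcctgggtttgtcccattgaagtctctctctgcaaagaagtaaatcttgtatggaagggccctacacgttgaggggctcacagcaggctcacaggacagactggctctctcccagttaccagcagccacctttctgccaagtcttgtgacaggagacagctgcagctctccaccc
In Cox6a1, 81 of the 250 bases lay in footprints of both libraries and the stretch held 22 CpG dinucleotides, and in Cox6a2 0 bases and 1 CpG. Cox8a had 28 such bases and 11 CpG, and Cox8b 0 and 1. The GC content was 61.6% in Cox6a1, 40.8% in Cox6a2, 52.8% in Cox8a and 47.2% in Cox8b. The remaining muscle pair differed less in footprinted bases and GC. The same stretch of Cox7a2 had 3 bases in footprints of both libraries, 51.6% GC and 12 CpG, and that of Cox7a1 0 bases, 49.2% and 3. The strongest Cox7a2 peak lay wholly after the 5′ end in replicate 1 and mostly so in replicate 2, so this stretch held little of it. Over the whole promoter window Cox7a2 had 4 shared footprints and Cox7a1 had 0. Cox6a2 also held the only match to the MEF2 motif among the members, with its first base at position −28 from the 5′ end. MEF2 factors are known regulators of muscle genes, and 2.85% of all genes held a match in that window. From 500 bp before to 100 bp after the 5′ end, 3 members matched, 1 of them a common member, against 6.94% of all genes.

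**Figure D3:**
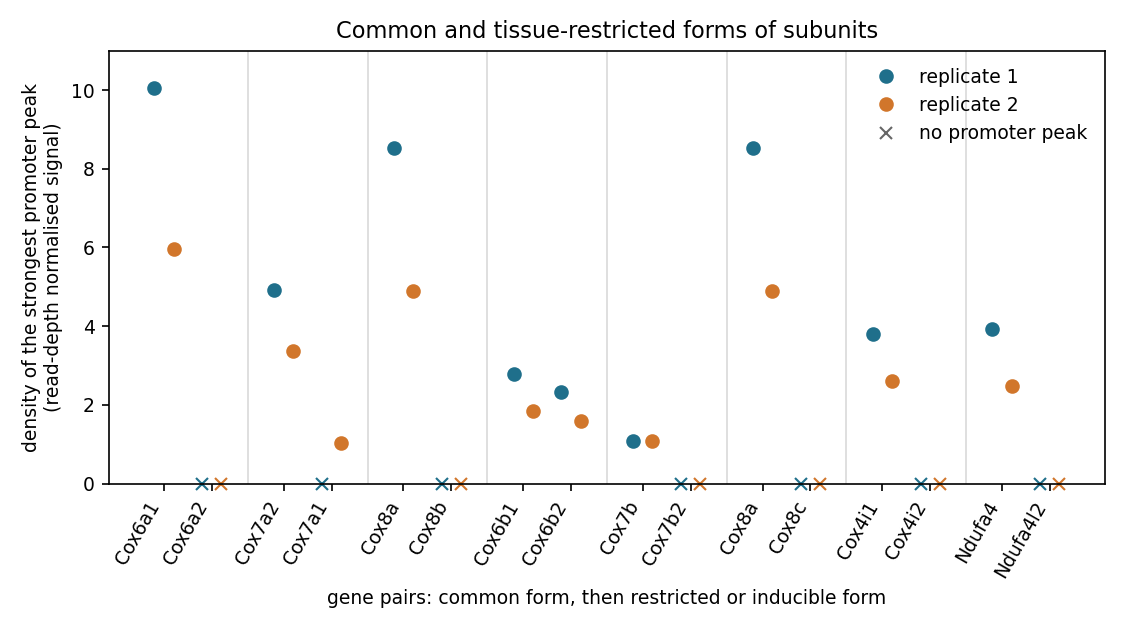
Density of the strongest promoter peak (vertical axis, read-depth normalised signal) for each common form and, to its right, the restricted or inducible form, in replicate 1 and replicate 2. Crosses on the axis mark genes without a promoter peak in that library. All common forms have a point in both libraries, and of the other forms Cox6b2 does in both and Cox7a1 in replicate 2.

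Cox7a1, the heart and skeletal muscle form of subunit 7a, stood between the states. The main list of replicate 1 held no promoter peak, although 32 bases in the window had an FDR under 0.001, and replicate 2 had 265 such bases and a peak with a density of 1.04 (percentile 51.7). A hotspot was called in both, with a highest −log10 FDR of 5.04 and 4.67. Footprints numbered 1 in replicate 1 and 7 in replicate 2, with none shared. In the looser list and both read-derived lists Cox7a1 had a peak in each library, so the replicates differed in the main list and not in these. Cox7a2, its common partner, had densities of 4.93 and 3.38, a hotspot of 49.5 in replicate 1, and 4 shared footprints.

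Cox6b2, the testis form of subunit 6b, was open in both libraries at a strength close to that of its common partner. Its densities were 2.33 and 1.60 (percentiles 69.7 and 71.8), and those of Cox6b1 were 2.79 and 1.85 (75.02 and 76.5). The partner was higher in both libraries, by 5.27 and 4.66 percentile points. The strongest Cox6b2 peak spanned chr7:4752981-4753240 in replicate 1 and chr7:4752961-4753200 in replicate 2 (mm10), with its midpoint at −17 and 13 bp from the start. Around it no other protein-coding gene started within 1 kb, and 4 footprints were shared. Its hotspot reached 13.6 and 8.18, below the 16.6 and 14.2 of Cox6b1.

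Ndufa4l2, induced by low oxygen, had no promoter peak, footprint or base listed under an FDR of 0.05. Replicate 2 had weak hotspots at its window, with a highest −log10 FDR of 1.62, and replicate 1 had none. A main peak lay 1966 bp from its start in both libraries. Ndufa4, its common partner, had densities of 3.93 and 2.49.

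The promoters of Cox7a1 and Cox6b2 are shown as the restricted forms with any accessible DNA, and that of Cox7b as the common one with the lowest mean percentile, although Ndufaf1 was lower in replicate 2, in the same form as above.
Cox7a1, chr7:30183894-30184143, plus strand: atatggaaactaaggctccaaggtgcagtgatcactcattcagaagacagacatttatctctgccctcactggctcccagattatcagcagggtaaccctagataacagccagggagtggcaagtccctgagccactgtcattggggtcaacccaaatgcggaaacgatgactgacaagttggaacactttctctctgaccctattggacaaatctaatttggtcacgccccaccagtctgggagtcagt
Cox6b2, chr7:4753095-4753344, minus strand: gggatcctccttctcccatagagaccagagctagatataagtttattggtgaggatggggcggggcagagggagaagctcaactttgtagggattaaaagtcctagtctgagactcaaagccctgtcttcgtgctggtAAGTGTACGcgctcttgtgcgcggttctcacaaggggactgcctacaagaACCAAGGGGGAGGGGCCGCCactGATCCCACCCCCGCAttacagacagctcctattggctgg
Cox7b, chrX:106015450-106015699, plus strand: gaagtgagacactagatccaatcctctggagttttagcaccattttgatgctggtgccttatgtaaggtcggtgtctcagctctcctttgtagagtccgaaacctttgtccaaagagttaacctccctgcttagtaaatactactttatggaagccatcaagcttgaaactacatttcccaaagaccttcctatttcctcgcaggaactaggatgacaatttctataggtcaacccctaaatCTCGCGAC
Cox6b2 had 44 bases in footprints of both libraries, Cox7b 8, and Cox7a1 0. The 300-base windows around the 5′ ends, from 250 before to 50 after, differed in CpG content between the classes. The ratio of observed to expected CpG had a median of 0.37 in the 8 restricted forms and 0.81 in the 85 common members, against 0.75 in open genes and 0.53 in all genes. The classes overlapped: the restricted forms ranged from 0.11 to 0.56 and the common members from 0.10 to 1.20. Each window sits at the outermost annotated 5′ end, which is not always the accessible start. In Atp5j2, with 0.10, the 5′ end is chr5:145192062 and the strongest peak of replicate 1 spanned chr5:145191461-145191660, outside the window. CpG content was not measured at other starts. Cox6b2 had 0.43.

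Markers of the tissues that use the restricted forms were examined beside them. Of 5 heart muscle markers, 0 had a promoter peak in both libraries; Myh7 and Nppa had one in replicate 2, with a summed density of 2.07 against 0 in replicate 1, and Myh6, Tnnt2 and Tnni3 had none. Of 6 skeletal muscle markers, Actn3 and Mylpf had one in both, with a summed density of 14.004 and 11.8, and Ckm, Acta1, Myod1 and Tnnt3 had none. The Actn3 peak lay nearer to Zdhhc24. The Mylpf peak was nearest to Mylpf, with Tbc1d10b starting within 1 kb. Of 6 germ cell markers Dazl alone had one, with densities of 2.85 and 1.62, and Ddx4, Prm1, Prm2, Tnp1 and Sycp3 had none. Myh7, Nppa and Ckm had a peak in the looser list and a hotspot in both libraries, and Sycp3 had a peak in the looser list of replicate 1. The part of these tissues in the values of Cox7a1 and Cox6b2 was not tested.

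Motifs of factors known from respiratory gene promoters were counted on both strands in the same 300-base windows. NRF1, a factor known to drive respiratory genes, was searched as GCGCNTGCG, which includes the stricter GCGCATGCG. It matched in 20 of 93 members (21.5%), in 13.8% of open genes and in 8.20% of all genes, and in none of the restricted forms. The stricter letters matched in 7 members (7.53%), against 3.67% and 2.17%. ETS factors (CCGGAAG) matched in 19.4% of members, 17.1% of open genes and 10.9% of all genes. YY1 (AAGATGGC) matched in 9.68%, against 4.43% and 2.92%. SP factors (GGGCGG) matched in 43.0% of members, 61.2% of open genes and 43.4% of all. The TATA box (TATAAA) matched in 11.8%, against 6.96% and 12.7%, and the CCAAT box (CCAAT) in 40.9%, against 39.8% and 38.9%. These comparisons depended on the window. Within 100 bp of the 5′ end the TATA box matched in 3.23% of members and 3.497% of open genes, and from 500 bp before to 100 bp after it the CCAAT box matched in 52.7%, against 56.98% and 58.1%. ERR (TCAAGGTCA), the site of an orphan receptor linked to energy metabolism, matched in Atp5g3 and Sdhd, 2.15% of members against 0.348% of open genes and 0.479% of all.

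**Figure D4:**
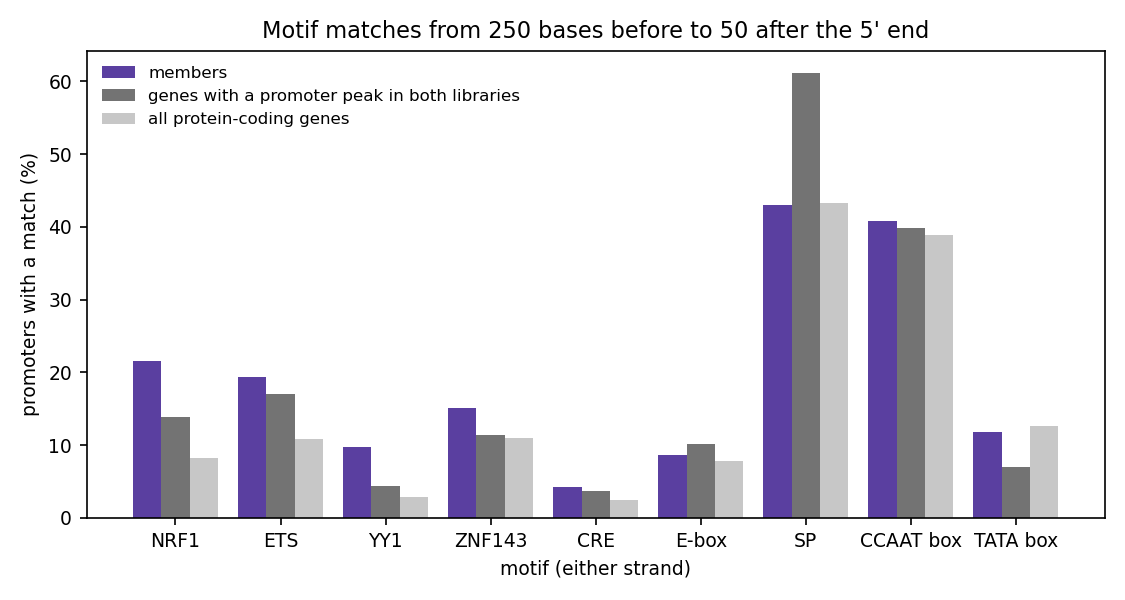
Bars give the percentage of promoters (vertical axis, from 0) with at least 1 match to each motif on either strand, for members, for open genes and for all protein-coding genes. For NRF1 the bars stand at 21.5%, 13.8% and 8.20%, for YY1 at 9.68%, 4.43% and 2.92%, and for SP at 43.0%, 61.2% and 43.4%. ZNF143 was searched as ACTACA, the CRE as TGACGTCA and the E-box as CACGTG.

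NRF1 matches in the members were mostly footprinted. Of 25 sites, with overlapping matches merged, 22 (88.0%) overlapped footprints in both libraries, against 74.3% of 2021 sites in open genes. The sites without one in both libraries were in Ndufa13, Ndufs7 and Uqcrc1. For ETS the count was 7 of 21 (33.3%, against 31.5%), for SP 27 of 57 (47.4%, against 48.9%) and for YY1 1 of 9 (11.1%, against 28.5%), the YY1 site being that of Ndufaf8. For ERR it was 0 of 2, against 2.33% of 43 sites in open genes. The match in letters is a description, and it does not name the protein bound.

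The 7 sites with the stricter NRF1 letters are printed because all of them were footprinted in both libraries, against 85.9% of such sites in open genes. Each line gives the site with 8 flanking bases to each side, 5′ to 3′ on the plus strand of GRCm38 (mm10), with the NRF1 letters in capitals.
Atp5k, chr5:108434432-108434456: ccagaaagGCGCATGCGccgcagtg
Atp5l, chr9:44920967-44920991: ggggaaatGCGCATGCGttattggt
Cox6a1, chr5:115349103-115349127: gcgagagcGCGCATGCGccccgttc
Ndufa11, chr17:56717694-56717718: tgcactgcGCGCATGCGcgcacgcc
Ndufaf4, chr4:24897962-24897986: agatgtctGCGCATGCGcctgtgcg
Ndufaf5, chr2:140170654-140170678: tcccgttgGCGCATGCGcctaatag
Uqcr11, chr10:80406810-80406834: gacgtataGCGCATGCGtgaaggcg
The sites belong to 2 ATP synthase genes (Atp5k, Atp5l), 1 of complex IV (Cox6a1), 1 of complex III (Uqcr11) and 3 of complex I or its assembly (Ndufa11, Ndufaf4, Ndufaf5). Their centres lay from −237 bases from the 5′ end of the gene, in Atp5l, to 17 bases after it, in Ndufaf5.

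Other genes of the pathway, which the naming rule does not cover, were read from a list of 47 matched genes, of which 45 were open. All 12 regulators were, among them Nrf1 with densities of 5.52 and 2.98, Esrra, which encodes an ERR receptor, with 19.7 and 15.6, and Tfam, the mitochondrial DNA packaging factor, with 7.33 and 4.03. Ppargc1a, a coactivator of the programme, was the weakest of those named here, with 0.812 and 0.711 (percentiles 16.3 and 28.1). Open assembly factors numbered 19 of 19 genes of complex IV, 6 of 6 of complex III, 3 of 4 of complex II and 3 of 3 of complex V. The closed one was Sdhaf1, an assembly factor of complex II.

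Cytochrome c carries electrons from complex III to complex IV and showed the same split between forms. Cycs, the somatic form, had densities of 12.5 and 9.10 (98.0 and 98.6) and 8 shared footprints. Cyct, the testis form, had no peak in any list, no hotspot and no base listed under an FDR of 0.05 in its window.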

How the data were processed

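The files hold DNase-seq intervals of 2 libraries on mm10, made per library and not pooled. Per the text lists deposited with the samples, narrowPeak lists, footprints and per-base values came from filtered alignments, and hotspots and a further pair of peak lists from reads. The sources used here give no aligner, caller or threshold. Peak density, as deposited, is a signal normalised to read depth. Hotspots carry a −log10 FDR, per the file headers. The p-value columns deposited by the authors hold the per-base FDR, listed under 0.05, and in the footprint lists a threshold of 0.01 in every line. Positions-only footprint lists of replicate 2 served as alternatives.

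In the main list every peak holds a base at FDR below 0.001 and in the looser list below 0.05, as read from the per-base values. Genes and TSSs came from GENCODE vM21, sequence from GRCm38. Promoter peaks overlap the window of 1 kb by at least 1 bp. Absolute depth is not reported here, and reads of an F1 hybrid mapped to 1 reference were not examined for allele bias.

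Named genes are the restricted forms with their partners, members without a peak in both libraries, the highest and lowest of each class, the 3 with the most shared footprints and the 3 with the largest percentile difference, plus pathway genes without a peak. Other members were named to fill out a count or a group after their values were seen. The members and lists were chosen with earlier results of these data known. Python 3.11.15, numpy 2.4.6, scipy 1.17.1, bedtools 2.31.1 and matplotlib 3.10.9 were used. The overlap, footprint and motif steps were tested on simulated data. Alternatives were other promoter windows, own peaks only, looser, stricter, equal-sized and read-derived lists, other footprint overlaps and lists, other motif windows and each library alone.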

Additional observations from a re-analysis of the deposited data

How the results depend on the processing

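The number of open members lay between 71 (peaks nearest to the member's own start only) and 87 under every alternative, and that with a shared footprint between 84 and 87. The share of all protein-coding genes with a promoter peak was not computed under the own-start rule. Under the other alternatives it lay between 53.5% and 61.8%. The number of restricted forms open in both libraries was 1 in the main lists and 2 with a window of 2500 bp (Ndufa4l2 added) and in the looser list and both read-derived lists (Cox7a1 added); with each library left out in turn it was 1 to 2, the 2 being replicate 2 alone (Cox6b2 and Cox7a1). The median percentile was 94.1 in the looser list, 87.1 in the stricter one, 91.4 in the smaller and 93.5 in the larger read-derived list, since each ranks against other peaks, and 88.7 to 89.8 with a library left out. In the other motif windows the NRF1 share lay between 23.7% and 26.9%, and the members' shares of NRF1, ETS, YY1 and ERR stayed above those of open and all genes. The ERR share rested on 2 or 3 members in each window. Among the other motif shares given above, these changed direction: the TATA box against open genes within 100 bp (3.23% and 3.497%), the CCAAT box against open and all genes from 500 bp before to 100 bp after (52.7%, 56.98% and 58.1%) and with the start nearest to the strongest peak (38.7%, 40.1% and 39.0%), and SP against all genes in the window from 500 bp before (53.8% and 49.7%). Of 240 pairs of a named gene and a setting, 229 had a peak in the same number of libraries, and the 7 with fewer were all under the own-start rule. Of the 30 named genes, Cox7a1 was the one whose call moved with the peak list, while Cox7b had a peak in both libraries in each of them. No paired analysis was possible because there was 1 group, with no other group to pair its replicates with.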
